A study of Mus musculus with 4 samples.

Results

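The interferon regulatory factors (IRFs) examined here are the 8 genes Irf1, Irf2, Irf3, Irf4, Irf5, Irf7, Irf8 and Irf9. A gene was a member when a probe set on the array had that symbol alone in the platform annotation, and its brightest probe set by mean was used. All 8 were found, among 19938 genes on the array, through 9 probe sets, since Irf1 has 2. Expression was measured on Affymetrix Mouse Gene 1.0 ST arrays in RAW 264.7 cells, which are mouse macrophage-like cells that form osteoclasts, the cells that resorb bone, under RANKL and M-CSF. The 4 groups were unstimulated control-vector cells, control-vector cells after 72 h of RANKL + M-CSF, unstimulated cells with a miR-155 expressing vector, and miR-155 cells after the same 72 h. Every group carries a vector by transfection; the series text names wild-type cells where the sample descriptions name a control vector, gives 20 ng/ml without stating if this is per cytokine, and does not describe the vectors or say whether a clone was used. With a single array in each group, the differences below have no replicate to be checked against, and precision is limited by the number of arrays.

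IRFs are transcription factors with a shared DNA-binding domain that reads GAAA core sequences. IRF3, IRF5 and IRF7 lie downstream of Toll-like and nucleic acid receptors, whose kinases phosphorylate them, and switch on interferon and cytokine genes; IRF9 is the DNA-binding subunit of the complex ISGF3, which relays type I interferon signals; IRF1 activates interferon gamma targets, and IRF2 competes with it at the same sites. IRF8, a partner of PU.1 in macrophages and dendritic cells, restrains osteoclast formation and opposes NFATc1, and IRF4 is its close relative in lymphocytes and some dendritic cells.

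The sequences below show the microRNA that defines the vector groups and the promoters of the 3 members whose windows held a motif read by IRF or STAT proteins. Mouse miR-155 has these mature strands in RefSeq (GRCm38.p6, chromosome 16, plus strand, at chr16:84714143-84714165 and chr16:84714182-84714202), printed with the seed, bases 2 to 8, in capitals.
mmu-miR-155-5p: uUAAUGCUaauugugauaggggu
mmu-miR-155-3p: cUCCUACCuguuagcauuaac

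RefSeq promoter windows (GRCm38.p6, 250 bases before to 50 after an annotated start) were held for all 8 members, 11 windows in all. They were searched on both strands for a tandem IRF core (GAAANNGAAA), an ETS-IRF composite (GGAANNGAAA), which PU.1 reads together with IRF8 or IRF4, and a gamma-activated site (TTCNNNGAA), which STAT dimers read. Matches are in capitals below. The first Irf8 window (plus strand, chr8:120736108-120736407) held 2 gamma-activated sites that start 171 and 153 bases upstream of the annotated start, the first Irf1 window (plus strand, chr11:53769764-53770063) held 1 that starts 90 bases upstream, and the Irf2 window (plus strand, chr8:46739495-46739794) held 1 of each motif, the composite and the tandem core overlapping.
Irf8: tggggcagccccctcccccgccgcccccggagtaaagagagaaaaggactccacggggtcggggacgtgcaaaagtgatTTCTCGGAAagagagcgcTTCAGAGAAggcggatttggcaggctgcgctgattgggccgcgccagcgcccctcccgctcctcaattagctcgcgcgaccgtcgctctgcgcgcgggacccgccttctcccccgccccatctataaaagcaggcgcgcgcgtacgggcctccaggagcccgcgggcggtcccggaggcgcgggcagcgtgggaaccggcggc
Irf1: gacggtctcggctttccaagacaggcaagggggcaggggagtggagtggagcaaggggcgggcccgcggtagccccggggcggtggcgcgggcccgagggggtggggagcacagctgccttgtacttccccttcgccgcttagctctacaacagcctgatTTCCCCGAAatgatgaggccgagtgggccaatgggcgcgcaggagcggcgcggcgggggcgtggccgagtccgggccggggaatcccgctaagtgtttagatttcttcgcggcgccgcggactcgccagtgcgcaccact
Irf2: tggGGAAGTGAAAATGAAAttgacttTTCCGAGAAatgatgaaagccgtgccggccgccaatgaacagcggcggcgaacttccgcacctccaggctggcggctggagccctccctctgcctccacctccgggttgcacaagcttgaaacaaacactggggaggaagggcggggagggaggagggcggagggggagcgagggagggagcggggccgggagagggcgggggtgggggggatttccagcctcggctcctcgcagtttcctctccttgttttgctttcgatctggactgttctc
Among all 32851 windows in the table, 8.3% held a gamma-activated site, 3.44% a tandem IRF core and 2.72% the composite. These letters were not in the windows of Irf3, Irf4, Irf5, Irf7 and Irf9, nor in the second windows of Irf1 and Irf8. A match is a description of the letters and no evidence of binding.

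Values are log2 expression, and the floor for a measurable level was 4.25, the 95th percentile over olfactory and vomeronasal receptor probe sets. In all, 13561 of 19938 genes had at least 1 array above it, and 7 of the 8 IRF genes did so on every array. The same receptor probe sets gave a noise reference for each comparison: 95% of them differed by less than 0.48 (log2) for stimulation in control cells, 0.41 for stimulation in miR-155 cells, 0.37 between the unstimulated arrays, 0.47 between the stimulated arrays and 0.64 for the difference of the responses. It comes from dim probe sets and does not stand in for replicates. The stimulated control array stood apart across genes, with a Pearson r of 0.908 to 0.937 against the other arrays, which correlated at 0.982 to 0.989 among themselves. Of 12 macrophage markers 10 were above the floor, Adgre1, Cd68, Csf1r and Lyz2 among them, and Mrc1 and Mertk lay below it on every array. Below it on every array were 7 of 9 T, B and NK cell markers, 7 of 9 granulocyte and mast cell markers, 2 of 8 fibroblast and osteoblast markers and 5 of 10 dendritic cell markers, namely Siglech, Clec9a, Xcr1, Cd209a and Ccr7. The other 6 fibroblast and osteoblast markers were above it on every array, Col1a1 at 5.67 to 5.79 among them. Of the other 5 dendritic cell markers, 1 was at least 1.5-fold higher and 1 lower with stimulation in control cells (median 0.08). Over all genes these shares were 12.3% and 15.1%. Itgax was the higher one, 6.04-fold (2.59), and was at 0.33 with miR-155. Bst2 was the lower one (-1.26), and was at -0.71 with miR-155. All 10 osteoclast markers were at least 1.5-fold higher in stimulated than in unstimulated control cells (median 5.57), beside 12.3% of all genes. With miR-155, 9 of 10 were so (median 3.31), beside 3.43% of all genes. Between the stimulated arrays, all 10 were at least 1.5-fold lower with miR-155 (median -1.97), beside 13.6% of all genes.

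**Figure D1:**
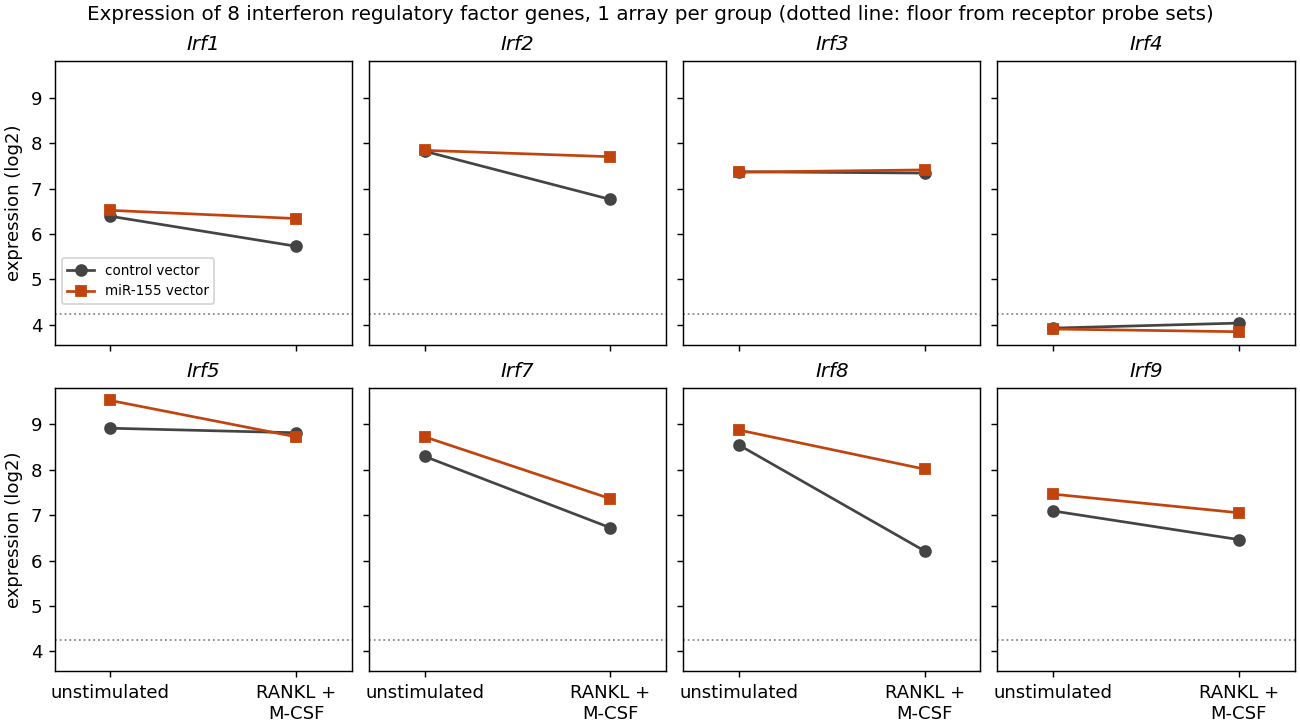
Log2 expression (vertical axis) of the 8 IRF genes on the unstimulated and stimulated arrays (horizontal axis), with circles for the control vector, squares for the miR-155 vector and 1 array per point. The dotted line is the floor of 4.25. Irf8 lies at 6.21 on the stimulated control array and at 8.01 or above on the other 3, Irf7 is lower on both stimulated arrays, Irf3 spans 0.06, and Irf4 stays below the floor.

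After 72 h of RANKL + M-CSF in control-vector cells, 5 of the 7 measurable IRF genes were at least 1.5-fold lower and none was higher. Of all 13561 genes above the floor, 15.1% were at least 1.5-fold lower and 12.3% at least 1.5-fold higher. The median difference of the 7 genes was -0.65, against -0.02 over all genes. In these bulk samples, fewer cells of a type and less RNA per cell cannot be told apart. The miR-155 cells gave 3 of 7 genes at least 1.5-fold lower and none higher, where 3.73% of all genes were lower and 3.43% higher, with a median of -0.40 against -0.03 over all genes. At 2-fold, 3 members were lower in control cells (Irf8, Irf7 and Irf2), where 6.92% of genes were, and 1 in miR-155 cells (Irf7), where 0.184% of genes were. The IRF genes at least 1.5-fold lower under both vectors were Irf7 and Irf8. The share of all genes lower under both was not counted, so this overlap cannot be weighed against it.

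Macrophage and cell cycle markers moved past 1.5-fold with stimulation under the control vector only. In stimulated control cells 8 of 10 measurable macrophage markers were past 1.5-fold downward (median -2.93), beside 15.1% of all genes. So were 11 of 11 cell cycle genes (median -2.54). In miR-155 cells none of either list was past 1.5-fold, beside 3.73% of all genes lower and 3.43% higher, and the medians were -0.29 and -0.19. The mean log2 level of the 12 macrophage markers was 6.95 on the stimulated control array and 9.12 to 9.48 on the other 3, and that of the cell cycle genes 7.38 against 9.75 to 9.85. The part of these shifts in the IRF differences was not tested.

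Irf8, the restraint on osteoclast formation, had the widest range of the 8 genes, 2.66 (log2). It lay at 8.54 in unstimulated control cells, 6.21 in stimulated control cells, 8.87 in unstimulated miR-155 cells and 8.01 in stimulated miR-155 cells. The stimulated control array thus stood far below the other 3, and within each vector the stimulated array was the lower. Stimulation came with a 5.03-fold lower level in control cells (-2.33), a difference that 1.02% of genes equalled or passed in that direction. In miR-155 cells the level was 1.82-fold lower (-0.86), 37.1% of the control response on the log2 scale, and 0.605% of genes were as low there. The miR-155 response lay above the control response by 1.47, and 3.3% of genes had a difference of the responses at least as high.

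Irf7, which encodes the inducible driver of type I interferon genes, was lower after stimulation by a similar amount under both vectors. It lay at 8.29 and 6.72 in unstimulated and stimulated control cells, and at 8.72 and 7.36 in miR-155 cells. The stimulated arrays were the lower pair, as they were for Irf8. Irf1, Irf2, Irf5 and Irf9 had the same order, but their pairs nearly met. The higher stimulated and the lower unstimulated level were 6.34 and 6.39 for Irf1 and 7.70 and 7.82 for Irf2. They were 8.81 and 8.91 for Irf5 and 7.05 and 7.09 for Irf9, so the order of these 4 genes is no shared response. The level was 2.97-fold lower after stimulation in control cells (-1.57) and 2.58-fold lower in miR-155 cells (-1.37), which is 87% of the control response. In miR-155 cells this was the lowest difference of all 13561 genes, and it ranked 1 as well under the other array scalings, probe set choices and floors tried. The next gene, Akna, stood at -1.30, a gap well inside the noise reference. In control cells 417 genes were as low as Irf7 or lower.

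Irf2, the competitor of IRF1, lay at 7.82, 7.84 and 7.70 on the unstimulated control, unstimulated miR-155 and stimulated miR-155 arrays and at 6.76 on the stimulated control array. Only the stimulated control array was low. The level was 2.09-fold lower with stimulation in control cells (-1.06), whereas the miR-155 difference of -0.14 was within the noise reference, so that the miR-155 response was 13.1% of the control one. The responses differed by 0.92.

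Irf1, the activator of interferon gamma targets, lay at 6.39 and 5.73 in unstimulated and stimulated control cells and at 6.52 and 6.34 in miR-155 cells. The stimulated control array was again the low one, 1.57-fold below the unstimulated one (-0.65), and the miR-155 difference was -0.18. The second Irf1 probe set, which rests on 1 accession, lay at 4.32 to 4.53 with a control response of -0.16, so the probe sets disagree in size. With both averaged the control difference was -0.41, no longer past 1.5-fold.

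Irf9, the ISGF3 subunit, lay at 7.09 and 6.46 in control cells and at 7.46 and 7.05 in miR-155 cells. Stimulation came with a difference of -0.63 under the control vector and of -0.40 under miR-155, the latter just inside the noise reference of 0.41. Irf1 and Irf9 are the members nearest the 1.5-fold line (0.585 on the log2 scale): after renewed quantile normalization both control differences were -0.49, under 1.5-fold.

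Irf5, which links Toll-like receptors to inflammatory cytokines, had another order. It lay at 8.91, 8.81 and 8.72 on the unstimulated control, stimulated control and stimulated miR-155 arrays and at 9.52 on the unstimulated miR-155 array. That array was the high one, and the other 3 lay close together. Stimulation in control cells came with a difference of -0.09, and in miR-155 cells the level was 1.74-fold lower (-0.80), which 0.988% of genes equalled or passed. The responses differed by -0.71.

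Irf3, which is made constitutively and regulated by phosphorylation, lay at 7.37, 7.34, 7.36 and 7.41 on the unstimulated control, stimulated control, unstimulated miR-155 and stimulated miR-155 arrays. Its differences, -0.03 and 0.05 with stimulation, were all within the noise reference. Irf4 lay below the floor on every array, at 3.85 to 4.04, and no fold is given for it.

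**Figure D2:**
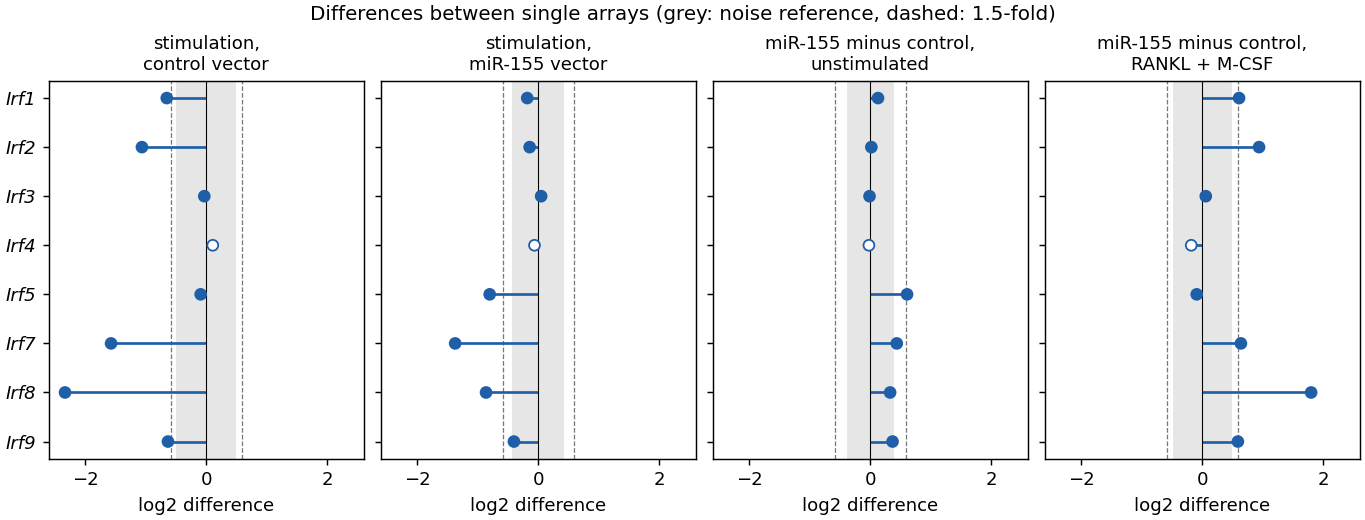
Log2 differences (horizontal axis) of the 8 IRF genes in 4 comparisons of single arrays, with the noise reference in grey, 1.5-fold as dashed lines and Irf4, below the floor, as an open point. Stimulation differences reach -2.33 for Irf8 in control cells and -1.37 for Irf7 in miR-155 cells, and the difference between the vectors after stimulation reaches 1.80 for Irf8.

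Before stimulation, the miR-155 cells had slightly higher levels of several members. Irf5 was 1.53-fold higher (0.61), the only one of 7 past 1.5-fold, where 1.18% of all genes were that much higher and 3.14% that much lower. Irf7 was higher by 0.44, also past the noise reference of 0.37, and Irf9 (0.37) and Irf8 (0.33) were at or inside it. Irf1 (0.13), Irf2 (0.02) and Irf3 (-0.01) were well inside it. The median was 0.33, against 0.00 over all genes, and no member was 2-fold higher, as 0.0664% of genes were.

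After stimulation, 5 of 7 members were at least 1.5-fold higher in miR-155 than in control cells and none was lower, where 12.3% of all genes were at least 1.5-fold higher and 13.6% at least 1.5-fold lower. Irf8 was 3.48-fold higher (1.80), Irf2 1.92-fold (0.94), Irf7 1.56-fold (0.64), Irf1 1.53-fold (0.61) and Irf9 1.5-fold (0.59). Irf8 was the 1 member past 2-fold, beside 5.6% of genes. Irf3 (0.06) and Irf5 (-0.09) were within the noise reference. Irf1 and Irf9 were under 1.5-fold with each array centred on its median, at 0.58 and 0.56, and after renewed quantile normalization, at 0.53 and 0.52. The second Irf1 probe set was at 0.05 here. With both Irf1 probe sets averaged the difference was 0.33, inside the noise reference of 0.47. Each array used here also enters a stimulation response, that of control cells or that of miR-155 cells, so this comparison is no separate evidence for either.

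The responses of the vectors share no array. Of the 7 members, 2 had a miR-155 response at least 1.5-fold above the control response, Irf8 and Irf2, and 1 had one at least 1.5-fold below it, Irf5. Over all genes these shares were 14.5% and 13.9%. At 2-fold, 1 member was above, Irf8, and none below, against 6.63% and 4.64% of genes. The 1.5-fold line lies inside the noise reference of 0.64 for this difference, which all 3 genes exceeded. Nothing in the design allows a test of it.

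**Figure D3:**
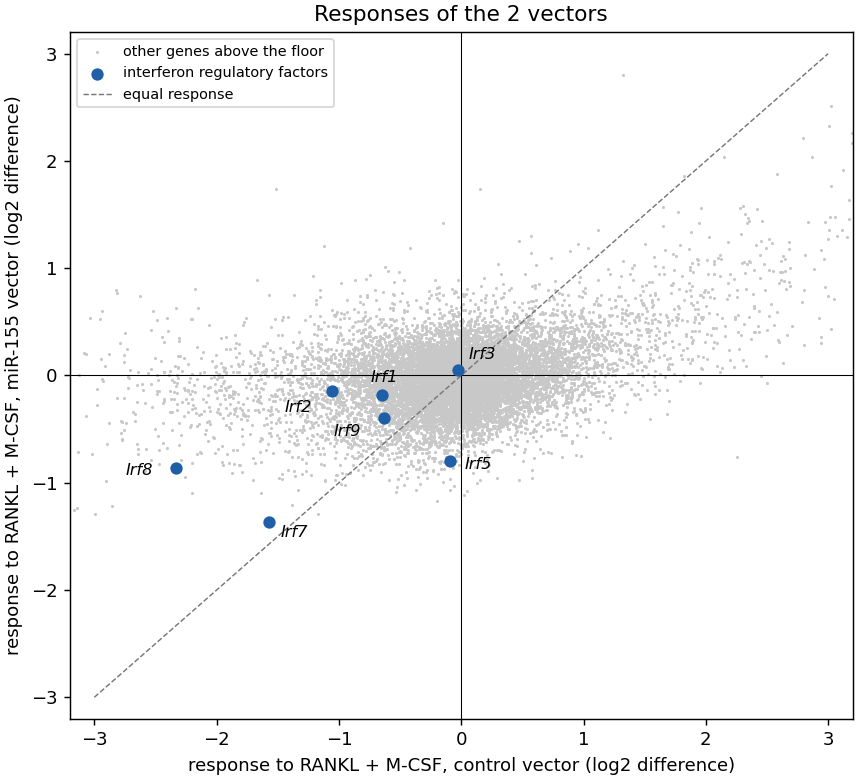
Response to RANKL + M-CSF (log2 difference, stimulated minus unstimulated) with the control vector (horizontal axis) against that with the miR-155 vector (vertical axis), for the 7 measurable IRF genes in blue and all other genes above the floor in grey; 104 genes lie outside the axes. Irf7 is near the line of equal response, Irf8 and Irf2 lie above that line, and Irf5 lies below it.

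An additive limma model over all genes, in which the disagreement between the vectors or the states supplies the error, called none of the 7 members for stimulation or for miR-155 after Benjamini-Hochberg adjustment, and 0% of all 13561 genes. At an unadjusted p under 0.05 limma had 2 members for stimulation, Irf7 and Irf8, and 0 for miR-155, beside 7.52% and 3.86% of all genes. For stimulation over both vectors, Irf7 was at -1.47 (SE 0.198, lower in 2 of 2 vectors, adjusted p 0.649 by limma) and Irf8 at -1.60 (SE 0.413, lower in 2 of 2, adjusted p 0.649). Irf9 was at -0.52 (SE 0.199), Irf2 at -0.60 (SE 0.3), Irf5 at -0.45 (SE 0.26), Irf1 at -0.42 (SE 0.226) and Irf3 at 0.01 (SE 0.192), with adjusted p from 0.649 to 0.996 by limma. For miR-155 over both states the estimates ran from 0.03 for Irf3 to 1.07 for Irf8 (SE 0.413), with adjusted p from 0.889 to 0.99 by limma.

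Of 21 measurable sensors, adaptors and kinases that feed signals to IRF3, IRF5 and IRF7, 12 had log2 differences past 1.5-fold downward in stimulated control cells. Past it upward were 4 (median -0.67), and the shares of all genes were 15.1% and 12.3%. Setting values below the floor to the floor gives a lower bound. Of the 21, 10 were then lower, since Tlr3 and Tlr8 no longer counted, and 14.7% of all genes were. Tlr7, the endosomal receptor for single-stranded RNA, lay at 8.55 in unstimulated control cells and below the floor after stimulation, at least 19.7-fold lower, and at 7.85 and 7.95 in miR-155 cells. Ikbke, a kinase that phosphorylates IRF3 and IRF7, had a difference of -2.17, the TLR4 adaptor Ticam2 was 4.01-fold lower and the RNA sensor relative Dhx58 had one of -1.98. The adaptor ligase Traf6 (1.20), the kinase Irak2 (1.15) and the scaffold Tank (1.12) were higher. In miR-155 cells 1 of 21 was past 1.5-fold upward, Tank (0.89), and 1 lower, the RNA sensor Ddx58 (-0.59), with a median of -0.15. Over all genes these shares were 3.43% and 3.73%. The genes just inside were Tlr9 (-0.51) and Tlr4 (0.48). Before stimulation 5 of 21 were past 1.5-fold downward in miR-155 cells, 4 of them also with the floor in place of lower values. In the other direction 1 was higher, and the shares of all genes were 3.14% lower and 1.18% higher. Tlr4 led at -1.07 and Tlr7 was at -0.70.

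The type I interferon genes Ifnb1 and Ifna4 lay below the floor on all arrays. Of 13 measurable receptor, JAK and STAT pathway genes, 5 were at least 1.5-fold lower in stimulated control cells and none was higher, with a median of -0.16, beside 15.1% and 12.3% of all genes. These were Stat2 (-1.10), the IRF9 partner in ISGF3, the receptor chains Ifngr1 (-1.06), Ifnar2 (-1.02) and Ifnar1 (-0.69), and the kinase Jak2 (-0.70). In miR-155 cells none of the 13 was past 1.5-fold, beside 3.73% of all genes lower and 3.43% higher. Stat2 at -0.58 and Ifnar2 at -0.42 were the farthest from 0 there, and the median was -0.19. Socs1, a brake on JAKs and a reported miR-155 target, was at 0.27 in miR-155 against control cells before stimulation and at -0.03 after it.

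Targets of ISGF3 past 1.5-fold were all lower after stimulation, under either vector. In control cells 18 of 29 measurable targets were past 1.5-fold downward, 17 with lower values set to the floor, and none upward (median -0.78), led by the deISGylating brake Usp18 (-2.32), Rtp4 (-2.31), Lgals3bp (-2.31) and the ADP-ribosyltransferase Parp14 (-2.20). In miR-155 cells 9 of 29 were past 1.5-fold downward, 8 with lower values set to the floor, and none upward (median -0.31). Here the oligoadenylate synthetase Oas3 (-1.07), the nucleotide kinase Cmpk2 (-0.97), Lgals3bp (-0.88) and the ubiquitin ligase Trim21 (-0.80) led, while Usp18 was at -0.32 and Parp14 at -0.31. The median over all genes was -0.02 in control and -0.03 in miR-155 cells. Under the control vector 15.1% of all genes were past 1.5-fold downward and 12.3% upward. Under miR-155 these shares were 3.73% and 3.43%. Between the stimulated arrays 14 of 29 were higher in miR-155 cells and none was lower (median 0.55), beside 12.3% and 13.6% of all genes. Between the unstimulated arrays Mx2 alone was past 1.5-fold, upward, beside 1.18% of all genes. Mx2 was below the floor in control cells there, and its bound of at least 1.28-fold higher leaves none.

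Among targets of IRF1 and interferon gamma, 8 of 19 measurable genes were past 1.5-fold downward and 2 upward in stimulated control cells (median -0.31), beside 15.1% and 12.3% of all genes, and 7 were lower with the floor in place of lower values. The chemokine Cxcl10 (-1.81), the immunoproteasome subunit Psmb8 (-1.22), the GTPase Irgm1 (-1.04) and the protease Casp1 (-1.02) led, and Gbp7 (0.87) and the checkpoint ligand Cd274 (0.76) were the higher ones. In miR-155 cells 2 of 19 were lower, Cxcl10 (-0.83) and Psmb9 (-0.59), none was higher, and the median was -0.10. Over all genes these shares were 3.73% and 3.43%. Cxcl10 was also higher in miR-155 than in control cells before (0.94) and after stimulation (1.92).

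Among partners and myeloid targets of IRF8, 9 of 21 measurable genes were at least 1.5-fold lower and 4 higher in stimulated control cells (median -0.42), beside 15.1% and 12.3% of all genes. The NADPH oxidase subunit Cybb (-6.95) and the fractalkine receptor Cx3cr1 (-5.32) were the lowest, and Prdm1, a repressor of Irf8 (at least 32-fold higher), and Nfatc1 (2.34) the highest. In miR-155 cells 3 were higher, Prdm1 (2.05), Nfatc1 (1.42) and Id2 (1.18), and 2 lower, Cebpa (-1.20) and Ikzf1 (-0.61), with a median of -0.22. Over all genes these shares were 3.43% and 3.73%. Cybb (-0.21) and Cx3cr1 (-0.33) stayed within the noise reference in miR-155 cells. Irf8 was lower by 0.86 between the same arrays, and a link between these levels was not tested. Spi1, which encodes PU.1, was higher in stimulated control cells (0.96) and at -0.20 in miR-155 cells.

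Of the regulators of IRF protein stability and activity, 4 of 21 were at least 1.5-fold lower and 2 higher in stimulated control cells (median -0.14), shares near the 15.1% and 12.3% of all genes. Among them were the ubiquitin-editing enzyme Tnfaip3 (2.56), the F-box protein Skp2 (-1.58), Rbck1, a ligase reported to target IRF3 (-0.98), and the ligase Rnf5 (0.91). In miR-155 cells 1 was past 1.5-fold, Trim21 (-0.80), beside 3.73% of all genes lower, and the median was 0.00. Genes of the IRF2-binding protein family were measured too: with stimulation in control and then miR-155 cells Irf2bp2 was at -0.66 and -0.55, Irf2bp1 at -0.23 and -0.48, and Irf2bpl at 0.58 and -0.88.

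**Figure D4:**
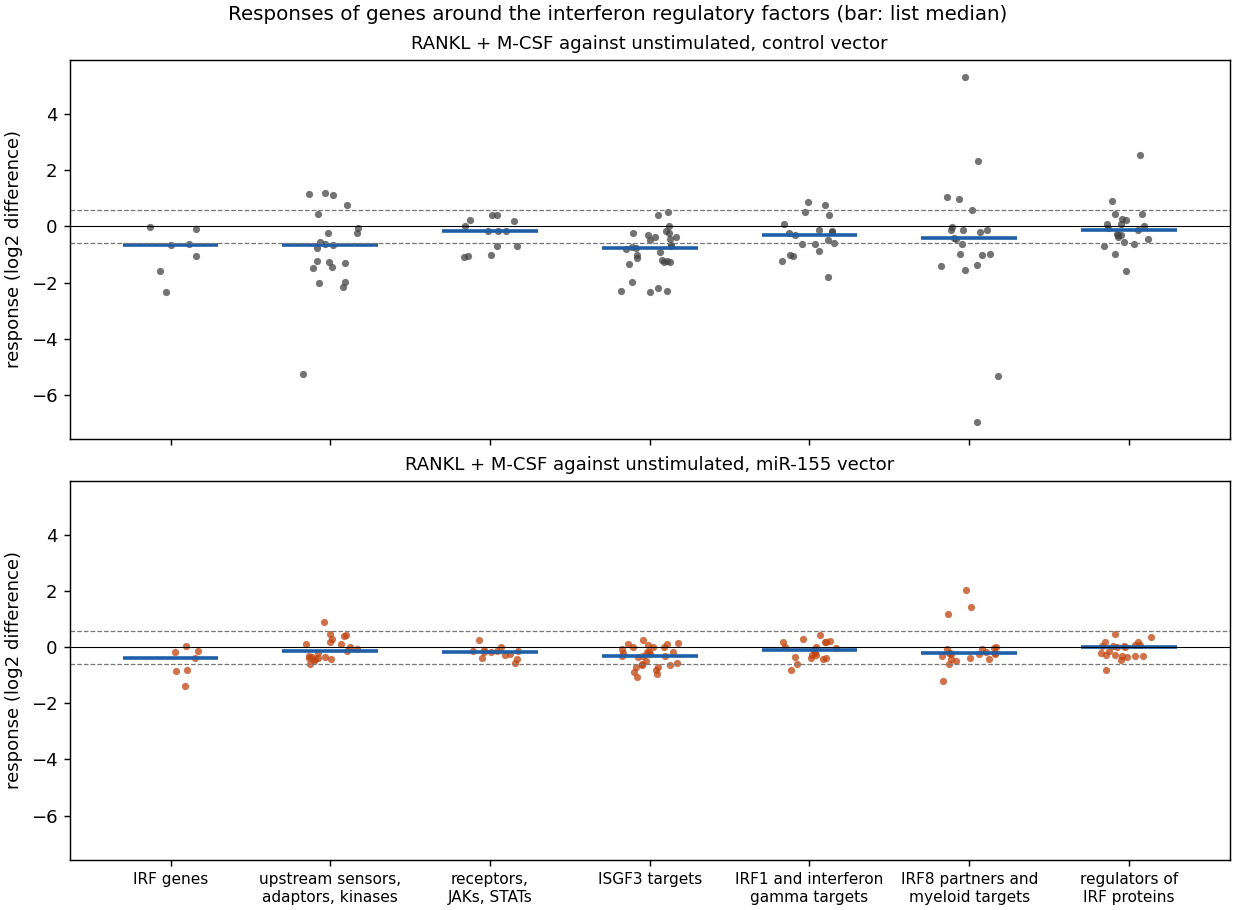
Responses to RANKL + M-CSF (vertical axis, log2 difference) of the measurable genes of each list (horizontal axis), 1 point per gene, for the control vector above and the miR-155 vector below; blue bars are list medians and dashed lines 1.5-fold. Over the 7 lists plotted, medians lie between -0.78 (ISGF3 targets) and -0.14 in control cells and between -0.40 (IRF genes) and 0.00 in miR-155 cells.

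For the members whose levels spanned at least 1 (log2), the genes with the most similar profile were sought among 13560 others by the Euclidean distance between mean-centred log2 values over 4 arrays. The interferon gamma receptor chain Ifngr1 was nearest to Irf2 (distance 0.019), followed by the autophagy gene Uvrag (0.045) and the amino acid transporter Slc7a6 (0.046). The Src family kinase Fgr was nearest to Irf8 (0.09), followed by the nucleoporin Nup210 (0.133) and the myeloid factor Lyl1 (0.145). For Irf7 the nearest were the transcription factor Tfap4 (0.199), the myeloid factor Cebpa (0.248) and the interferon-induced Oas3 (0.275). With 4 arrays many genes share a profile, and these distances are a description.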

How the data were processed

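The members and gene lists were chosen with earlier results of these data known. Total RNA (100 ng per array) was labelled as biotinylated cRNA, per the labels' protocols. The deposited values are log2 expression per probe set; per the submitters' processing notes they were made with RMA (background correction, quantile normalization) and Partek, with versions and genome build not given in the sources used here. Such normalization hides a change of total RNA per cell.

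Of 35557 probe sets, 21789 had 1 gene symbol, 1621 several and 12147 none; the highest-mean probe set stood for each gene, and all 8 members had their gene ID in the RefSeq table (GRCm38.p6). Genes with their highest value above 4.25, the 95th percentile of 1212 olfactory and vomeronasal receptor probe sets, were used. Differences of log2 values were counted past 1.5-fold; where 1 value lay below the floor, the fold of the other over the floor is a lower bound.

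limma 3.58.1 (lmFit, eBayes, R 4.3.3) modelled 13561 genes on stimulation plus vector, two-sided, with Benjamini-Hochberg adjustment at 0.05. Its 1 residual degree of freedom is the interaction, which is no measure of the spread between cultures. The step was run on simulated data with additive changes and random noise. These data held no interaction, so they do not show how the fit behaves where the vectors respond differently. All 8 members are named; of each list, up to 4 genes farthest from 0 in a comparison, and others past 1.5-fold or of direct interest to a member chosen after their values were seen. Python 3.11.15, numpy 2.4.6, pandas 2.3.3 and matplotlib 3.10.9 were used. Alternatives were the array scaling, probe set choice, floor, fold threshold and an intensity trend.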

Additional observations from a re-analysis of the deposited data

Results flagged for a closer look

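Among the 130 listed genes above the floor, 9 had differences of opposite sign under the same contrast, each past its noise reference. None was an IRF gene. With 1 array per group the differences between them were not tested. How often such pairs of signs occur over all 13561 genes was not counted, so 9 of 130 is no result about these lists. For stimulation, the control and miR-155 responses were 0.58 and -0.88 for Irf2bpl (difference -1.46), -0.67 and 0.48 for Tlr4 (1.16), 0.75 and -0.43 for the TLR adaptor Ticam1 (-1.18), -1.02 and 0.45 for Casp1 (1.47), and 0.58 and -0.43 for the nuclear body gene Pml (-1.01). For miR-155 against control, the unstimulated and stimulated differences were -0.46 and 1.35 for Ikbke (difference 1.82). For 3 more genes the differences as measured involve values below the floor: -0.70 and 4.67 for Tlr7 (5.37), -0.88 and 0.59 for Tlr8 (1.47), and 0.45 and -2.81 for Prdm1 (-3.26). Tlr7 was below it in stimulated control cells, so that only a level at least 13-fold higher with miR-155 is shown. Tlr8 was below it on 3 of the 4 arrays, both stimulated ones included, so its direction after stimulation is not measured. Prdm1 was below it in unstimulated control cells, where the bound is at least 1.1-fold higher with miR-155.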

How the results depend on the processing

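Of 616 recomputed values, 607 stayed within 1.5 times the count, within the noise reference or on the same side of the limma threshold, and no value past 1.5-fold changed sign. The sign changed for 14 values near 0 (at most 0.098 from it), 4 of them Irf3 differences. Setting values below the floor to the floor, an alternative chosen after seeing the data, changed no difference of the 7 measurable members. With quantile normalization applied once more, 3 IRF genes in place of 5 were lower in stimulated control cells and 3 in place of 5 higher in stimulated miR-155 than control cells; with each array centred on its median the latter count was also 3. At 2-fold in place of 1.5-fold, 3 were lower in stimulated control cells, 1 lower in stimulated miR-155 cells, 0 higher in unstimulated miR-155 than control cells and 1 higher after stimulation, and the responses differed upward in 1 and downward in 0. limma called 0 members in every setting, with adjusted p for Irf7 and stimulation between 0.488 and 0.719. A member's difference moved by at most 0.047 with centring, 0.166 with renewed quantile normalization and 0.281 with averaged probe sets. No paired analysis was possible because each group has 1 array, which gives 1 pair per contrast and no spread. The limma model holds the vector as a term, and no array can be left out without losing a group. The signal of Irf4, below the floor, limits what can be said of it.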
